A study of Mus musculus with 15 samples.

Results

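Ion channels let sodium, calcium, potassium and chloride cross the membranes of a heart muscle cell, and the genes for their pore-forming and auxiliary subunits were followed in ventricular cardiomyocytes isolated from mice of 3 ages. Members were chosen by symbol, as the listed genes whose name begins with the prefix of a potassium (Kcn), sodium (Scn), calcium (Cacn), pacemaker (Hcn), CLC or CLIC chloride (Clcn, Clic), TRP (Trpc, Trpm, Trpv), endolysosomal pore (Tpcn), anoctamin (Ano), Piezo or TRIC (Tmem38) family. The prefixes matched 36 of the 9666 genes in the deposited table, with 10 Kcn genes, 10 Clcn, Clic and Ano genes, 7 Scn and Cacn genes, 6 TRP, Piezo and Tpcn genes, 2 TRIC genes, and Trpc4ap, which is named for binding a TRP channel and is not itself a subunit. No listed gene carried the Hcn prefix, and channel genes outside the table are not analysed here.

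All mice were wild type (WT) and of the C57BL/6 strain, and the labels name no treatment. Libraries came from newborn mice on day 1 after birth (P1) and on day 3 (P3), 4 libraries at each age, and from 7 samples of adults aged 8 to 12 weeks. The series asks which transcripts separate neonatal ventricular muscle, which can still regenerate, from adult muscle. The labels do not say that the libraries of a group came from separate animals, so the spread that p-values rest on may be technical.

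The cardiac action potential starts when sodium channels open, is held up by calcium entering through L-type channels, and ends as voltage-gated potassium channels carry charge out of the cell. Inward rectifier and background potassium channels then hold the resting potential, while TRIC channels of the sarcoplasmic reticulum let potassium flow in as calcium is released. Other members sit in endosomes and lysosomes or respond to stretch and to calcium, and several of these are active in endothelial cells and fibroblasts as well as in muscle.

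Expression was deposited as RPKM, reads per kilobase of gene and per library size, which allows levels of different genes to be set side by side. RPKM sums over the listed genes ran from 145050 to 321035 per library. Whole reads could be recovered for 32 of the 36 members, and 3 of these members had fewer than 10 reads in at least 1 library, with a lowest count of 2 reads for Trpv2. Cardiomyocyte markers were present throughout, with all 8 of 8 fixed markers in the table, and their summed level was 3312 to 8717 RPKM at P1, 414 to 2932 RPKM at P3 and 8940 to 16612 RPKM in adults. The 4 P3 libraries were unlike each other in this respect: replicate 1 reached 2932 RPKM, and replicates 2 to 4 had 729, 444 and 414 RPKM. Endothelial markers (9 of 12 in the table) summed to 210.1 to 481 RPKM at P1, 706 to 1668 RPKM at P3 and 2.74 to 215 RPKM in adults. Fibroblast markers (4 of 8) summed to 165 to 860 RPKM at P1, 320.4 to 843 RPKM at P3 and 0.911 to 63.4 RPKM in adults, and mural markers (4 of 6) to 164 to 603, 538 to 883 and 20.5 to 111 RPKM at these ages. In bulk RNA, fewer cells of a type and less RNA per cell cannot be told apart, which touches every result below. The adult libraries fell into 2 sets that the labels do not name, because RPKM values in adult replicates 1 to 4 moved in steps of 2 common units, and those in adult replicates 5 to 7 and in every neonatal library in steps of 1.

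**Figure D1:**
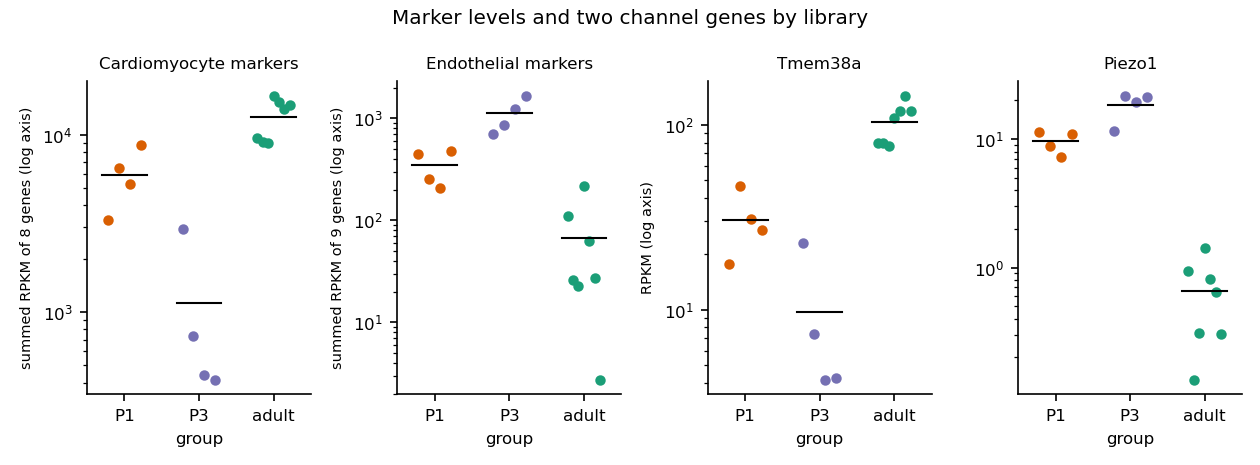
Summed RPKM of the cardiomyocyte and endothelial markers and RPKM of Tmem38a and Piezo1, each on a log axis, with 1 point per library and a bar at the group mean. P3 replicates 2 to 4 lay lowest in cardiomyocyte markers and in Tmem38a, and every adult library lay below every neonatal one for Piezo1.

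Across the channel genes, adult cells differed from neonatal ones in 2 directions. Of the 10 potassium channel genes, 5 were called higher in adult against P1 and 8 in adult against P3, as was the reticulum gene Tmem38a in both, while Clic1, Ano6, Piezo1, Clcn6 and Trpv2 stood far lower. The typical gene itself was lower in adults on the deposited scale: the median change of all 9389 tested genes was -1.36 for adult against P1 and -1.48 for adult against P3 in log2(RPKM + 0.5), and 0.09 for P3 against P1. Changes are therefore also given relative to this median gene. Against P1, 6 of the 35 tested channel genes were higher in adults, where 4.32% of all genes were, and 12 were lower, where 62.7% of all genes were (67.0% in either direction). Against P3, 12 were higher, where 9.16% of all genes were, and 12 were lower, where 62.7% were (71.9% in either direction). A call required an adjusted p under 0.05 in limma and a log2 change of at least 1. The median channel gene changed by -0.40 against P1 and -0.11 against P3, and 26 and 27 of the 35 lay above the median gene.

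Scaling decided the split of these calls. With median-of-ratios scaling 16 channel genes were higher and 5 lower in adult against P1, where 19.8% of all genes were higher and 16.6% lower. In adult against P3, 20 were higher and 6 lower, where 24.9% and 22.8% of all genes were. Under each of 5 scalings, 6 genes were higher and 5 lower in adult against P1, and 12 were higher and 6 lower in adult against P3. The shares of all genes called in all 5 were not counted, but cannot exceed the lowest share in any 1 scaling. These limits were 4.32% higher and 16.6% lower against P1, and 9.16% higher and 22.8% lower against P3. The sign of the change differed between scalings for 15 of 35 genes in adult against P1 and for 10 of 35 in adult against P3. Among them in adult against P1 were Ano8, Cacna1g, Cacnb2, Clcn3, Clcn4, Clcn7, Clic4, Clic5, Kcng2, Kcnh2, Tpcn1, Trpc1 and Trpc4ap, and in adult against P3 Ano10, Ano8, Clcn3, Clcn4, Kcne1, Tpcn1, Trpc1, Trpc4ap and Trpm4. The tested channel genes outside these 15 and 10 kept their direction in the 5 scalings.

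**Figure D2:**
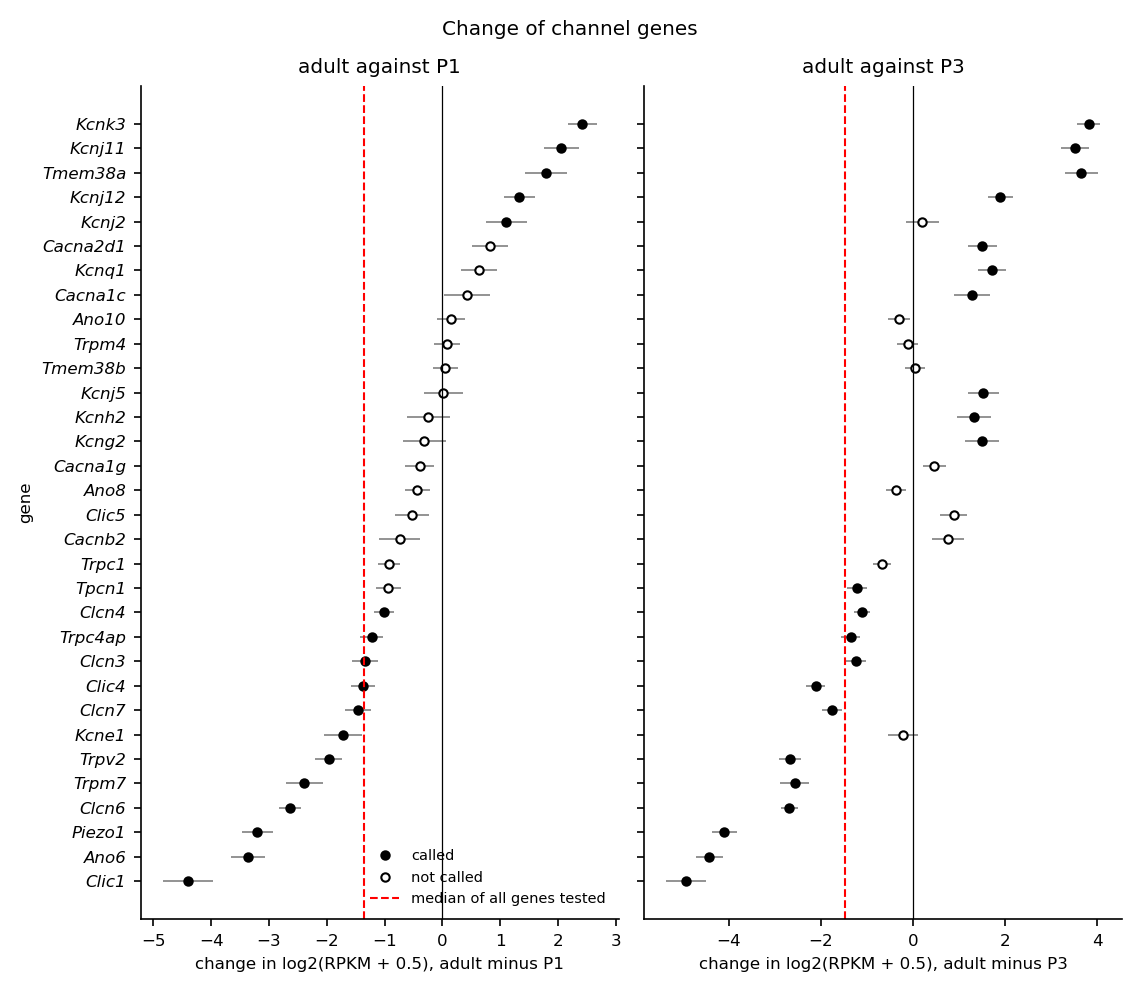
Log2 change of RPKM + 0.5 for 32 of the 35 tested channel genes, adult minus P1 at the left and adult minus P3 at the right, with bars of 1 standard error; filled points passed the test and the dashed line marks the median of all tested genes. Kcnk3 lies at the top with changes of 2.42 and 3.82, and Clic1 at the bottom with -4.40 and -4.93.

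**Figure D3:**
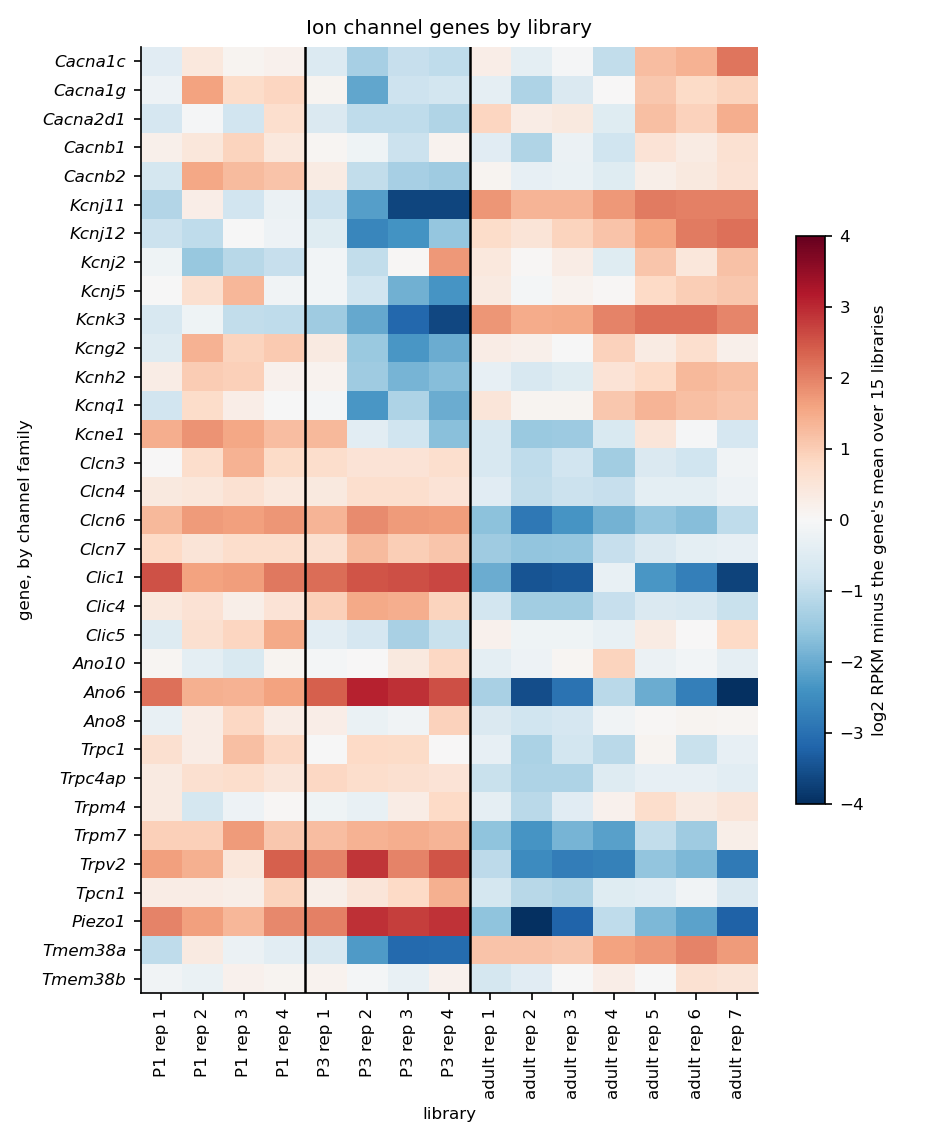
Log2 RPKM of 33 of the 36 channel genes in each of the 15 libraries, minus the mean of the gene over all libraries, ordered by channel family. The colour scale ends at -4 and 4. For most potassium genes P3 replicates 2 to 4 are blue and adult replicates 5 to 7 are red, and Clic1, Ano6 and Piezo1 are red in all neonatal libraries.

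The bases upstream of 4 genes with large changes are shown because these genes moved together, Tmem38a and Kcnj12 upward in adults and Ano6 and Piezo1 downward; they were chosen after their values were seen. Each is the 250 bases before the RefSeq gene start on GRCm38.p6, read 5′ to 3′ on the strand of the gene, and 23 of the 36 members had such an entry. Tmem38a lies at chr8:72571573-72571822 (plus strand), Kcnj12 at chr11:61065554-61065803 (plus strand, within the longer gene model of GENCODE), Ano6 at chr15:95790593-95790842 (plus strand, where an antisense RNA is annotated on the other strand) and Piezo1 at chr8:122551330-122551579 (minus strand). Capitals mark matches on either strand to the GATA-factor motif AGATAA, the TEAD motif GGAATG or the muscle E-box motif CAGCTG.
Tmem38a: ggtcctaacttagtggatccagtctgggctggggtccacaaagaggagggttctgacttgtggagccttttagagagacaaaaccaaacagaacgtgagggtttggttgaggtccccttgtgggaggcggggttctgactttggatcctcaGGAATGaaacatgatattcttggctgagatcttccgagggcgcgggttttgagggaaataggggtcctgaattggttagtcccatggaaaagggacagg
Kcnj12: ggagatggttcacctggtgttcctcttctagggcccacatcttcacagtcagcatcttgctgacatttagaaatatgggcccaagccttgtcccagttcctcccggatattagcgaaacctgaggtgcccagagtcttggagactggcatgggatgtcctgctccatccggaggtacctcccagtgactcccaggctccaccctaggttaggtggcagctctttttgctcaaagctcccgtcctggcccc
Ano6: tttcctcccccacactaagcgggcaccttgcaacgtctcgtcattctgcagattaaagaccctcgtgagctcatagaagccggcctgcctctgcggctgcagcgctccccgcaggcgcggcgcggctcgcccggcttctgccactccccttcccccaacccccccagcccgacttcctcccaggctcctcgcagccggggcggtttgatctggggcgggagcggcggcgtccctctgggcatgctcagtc
Piezo1: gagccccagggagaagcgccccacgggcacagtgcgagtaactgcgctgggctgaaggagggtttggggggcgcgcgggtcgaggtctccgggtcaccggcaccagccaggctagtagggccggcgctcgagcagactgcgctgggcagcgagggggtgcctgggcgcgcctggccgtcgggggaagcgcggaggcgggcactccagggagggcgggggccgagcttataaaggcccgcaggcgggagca
The Tmem38a window held 1 GGAATG match, a motif found in 12.6% of 27025 mouse promoters. AGATAA, found in 10.3% of promoters, and CAGCTG, found in 12.8%, had 0 matches in these windows, and the Kcnj12 window had 0 matches to each of the 3 motifs. GGGCGG (a GC box, in 32.9% of promoters) occurred 2 times upstream of Ano6 and 1 time upstream of Piezo1, and TATAAA (in 13.0%) 1 time upstream of Piezo1. GC content was 51.6% for Tmem38a and 56% for Kcnj12, and 68.4% and 74% for Ano6 and Piezo1, against a median of 52% over all promoters. These matches describe letters in a window and do not show binding.

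Potassium channel genes carried most of the rises. Of the 10 Kcn genes, 5 rose and 1 fell in adult against P1, where 4.32% of all genes rose and 62.7% fell. In adult against P3, 8 rose and 0 fell in limma (unadjusted p under 0.05: 0 falling), where 9.16% and 62.7% of all genes did. The 5 and the 8 rises were called in each of 5 scalings, where at most 4.32% and 9.16% of all genes can have been. The median change of the Kcn genes was 0.87 and 1.59, while that of all genes was -1.36 and -1.48. In adult against P3, each of the 10 lay above the median gene.

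Kcnk3 (chr5:30588170-30625271, plus strand of GRCm38, as are the other gene positions given here), a background potassium channel that contributes to the resting potential, showed the largest rise. It measured 3.70, 5.13, 2.92 and 2.87 RPKM in the P1 libraries, 2.18, 1.41, 0.654 and 0.461 RPKM in the P3 libraries, and 16.4 to 26.5 RPKM with a median of 22.4 in adults. Every adult library stood above every neonatal one. The change was 2.42 for adult against P1 (SE 0.25, adjusted p = 7.1e-08) and 3.82 for adult against P3 (SE 0.25, adjusted p = 1.8e-10), or 3.79 and 5.30 above the median gene. The rise against P1 was 2.25 with adult replicates 1 to 4 alone and 2.65 with adult replicates 5 to 7 alone.

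Kcnj11 (chr7:46093953-46100764, minus strand), the pore of the ATP-sensitive potassium channel, followed the same order of ages. Its level was 1.87, 5.10, 2.49 and 3.55 RPKM at P1, 2.33, 0.910, 0.332 and 0.330 RPKM at P3, and 10.8 to 17.9 RPKM with a median of 14.4 in adults, again without overlap between adult and neonatal libraries. The change was 2.06 against P1 (SE 0.30, adjusted p = 4.9e-06) and 3.52 against P3 (SE 0.30, adjusted p = 3.8e-09). P3 replicate 1, the P3 library with the most cardiomyocyte marker RNA, was the highest of the P3 libraries.

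Kcnj12 and Kcnj2 encode inward rectifiers that pass the resting potassium current of ventricular cells. On the deposited scale both were called higher in adults than at P1, and Kcnj12 alone was also called higher than at P3. Kcnj12 (chr11:61022564-61071131, plus strand) measured 0.584, 0.524, 1.06 and 0.927 RPKM at P1, 0.753, 0.173, 0.204 and 0.359 RPKM at P3, and 1.51 to 4.84 RPKM with a median of 2.32 in adults, and its lowest library held 8 reads. It rose by 1.33 in adult against P1 (SE 0.27, adjusted p = 1.4e-04) and by 1.90 in adult against P3 (SE 0.27, adjusted p = 2.1e-06), with no overlap of adult and neonatal libraries. Kcnj2 (chr11:111066164-111076821, plus strand) measured 2.46, 0.958, 1.28 and 1.47 RPKM at P1, 2.52, 1.40, 2.82 and 9.09 RPKM at P3, and 1.96 to 6.26 RPKM with a median of 3.70 in adults. P3 replicate 4 held the highest Kcnj2 value of the 15 libraries, and adult and P3 libraries overlapped fully. Kcnj2 rose by 1.11 in adult against P1 (SE 0.35, adjusted p = 0.0075), a call that was lost without P1 replicate 2 (0.96) and without adult replicate 7 (1.00), and its change in adult against P3 was 0.21 (SE 0.35, adjusted p = 0.59), though called higher in 3 of 5 scalings. With adult replicates 1 to 4 alone, the changes against P1 of Kcnj12 (0.92) and Kcnj2 (0.79) no longer passed, while with adult replicates 5 to 7 alone they were 1.87 and 1.54 and passed.

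Kcnq1 and Kcnh2 encode the pores of the slow and rapid delayed rectifier currents, and Kcne1 encodes an auxiliary subunit that slows Kcnq1 channels. Kcnq1 measured 1.63, 4.60, 3.35 and 2.76 RPKM at P1, 2.62, 0.558, 1.18 and 0.708 RPKM at P3, and 2.98 to 7.08 RPKM with a median of 5.84 in adults. It rose by 1.72 in adult against P3 (SE 0.31, adjusted p = 4.2e-05), without overlap, and its change against P1 was 0.63 (SE 0.31, adjusted p = 0.066) on the deposited scale and passed in the other 4 of 5 scalings (1.98 with median-of-ratios scaling). Kcnh2 measured 5.89, 9.80, 9.36 and 5.39 RPKM at P1, 5.30, 1.80, 1.32 and 1.49 RPKM at P3, and 3.11 to 11.8 RPKM with a median of 6.96 in adults. Adult and P1 libraries of Kcnh2 overlapped, with a change of -0.24 (SE 0.37, adjusted p = 0.55) whose sign turned positive, and past the test, under median-of-ratios scaling (1.19) and under quantile normalization (1.16). Against P3 Kcnh2 rose by 1.33 in adults (SE 0.37, adjusted p = 0.0028), and by 0.81, short of the test, with adult replicates 1 to 4 alone.

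Kcne1 was lower in adults than at P1. It measured 4.85, 6.16, 5.14 and 4.17 RPKM at P1, 4.36, 1.34, 1.03 and 0.556 RPKM at P3, and 0.629 to 2.51 RPKM with a median of 1.13 in adults. All adult libraries lay below all P1 libraries, and Kcne1 fell by 1.72 in adult against P1 (SE 0.33, adjusted p = 9.3e-05), which is -0.35 relative to the median gene, a call made in 2 of 5 scalings. Its change in adult against P3 was -0.21 (SE 0.33, adjusted p = 0.55) and had the opposite sign in at least 1 scaling.

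Kcnj5, a G protein-gated inward rectifier, and Kcng2, a subunit that modifies other voltage-gated potassium pores, overlapped between adults and P1. Kcnj5 averaged 8.11 ± 4.01 RPKM at P1, 2.68 ± 1.84 RPKM at P3 (SD, n = 4 each) and 7.88 ± 2.56 RPKM in adults (SD, n = 7). Kcng2 averaged 11.2 ± 4.99 RPKM at P1, 3.25 ± 3.19 RPKM at P3 (SD, n = 4 each) and 8.19 ± 1.96 RPKM in adults (SD, n = 7). Against P3 Kcnj5 rose by 1.53 (SE 0.34, adjusted p = 3.6e-04) and Kcng2 by 1.50 (SE 0.37, adjusted p = 0.0010). Against P1 their changes were 0.01 (SE 0.34, adjusted p = 0.98) and -0.32 (SE 0.37, adjusted p = 0.43), but both were called higher with quantile normalization (1.40 and 1.02) and with median-of-ratios scaling (1.46 and 1.15).

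**Figure D4:**
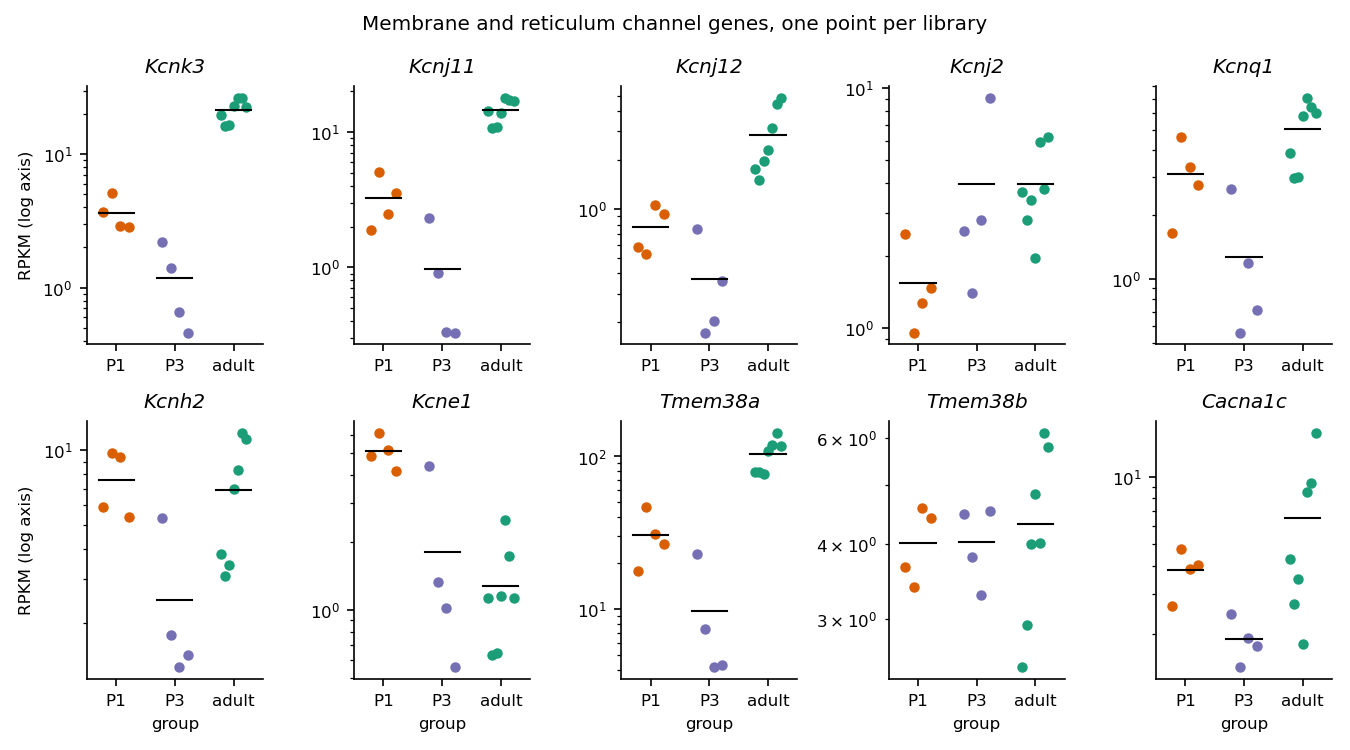
RPKM on a log axis of 10 channel genes in the P1, P3 and adult libraries, with 1 point per library and a bar at the group mean. Adult libraries stand above all neonatal ones for Kcnk3, Kcnj11, Kcnj12 and Tmem38a, and below all P1 libraries for Kcne1; 1 P3 library, replicate 1, lies near the P1 libraries in most panels.

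Among the calcium channel genes, Cacna2d1 and Cacna1c rose in adult against P3. These were 2 of 4 tested Cacn genes, where 9.16% of all genes rose. In adult against P1, 0 of the 4 were called in limma (unadjusted p under 0.05: 1 higher, 1 lower), where 67.0% of all genes were. Another member, Cacnb1, a calcium channel beta subunit, ranged from 0.188 to 0.811 RPKM over the 15 libraries and did not reach the level required for testing.

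Cacna1c (chr6:118587240-119196418, minus strand), the pore of the L-type calcium channel that triggers contraction, measured 2.65, 4.76, 3.88 and 4.05 RPKM at P1, 2.45, 1.42, 1.91 and 1.76 RPKM at P3, and 1.80 to 15.7 RPKM with a median of 4.29 in adults. Adult levels differed between the 2 sets of libraries: replicates 1 to 4 averaged 3.08 RPKM and replicates 5 to 7 averaged 11.2 RPKM, with no overlap. The change in adult against P3 was 1.28 over all adults (SE 0.40, adjusted p = 0.0057), 0.55 with adult replicates 1 to 4 and 2.26 with adult replicates 5 to 7, and only the first and the last passed. In adult against P1 it was 0.43 (SE 0.40, adjusted p = 0.32) over all adults, -0.30 with replicates 1 to 4 and 1.41, past the test, with replicates 5 to 7; it also passed in 4 of 5 scalings (up to 1.83). Cacna2d1, an auxiliary subunit that raises the number of calcium channels at the surface, measured 5.21, 7.98, 4.86 and 13.1 RPKM at P1, 5.56, 4.12, 4.08 and 3.58 RPKM at P3, and 5.89 to 22.8 RPKM with a median of 14.9 in adults. It rose by 1.51 in adult against P3 (SE 0.31, adjusted p = 1.7e-04), with every adult library above every P3 library, and its change against P1 was 0.82 (SE 0.31, adjusted p = 0.020), short of the required size on the deposited scale and called in the other 4 of 5 scalings (up to 2.28).

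Cacna1g, a T-type pore of the immature heart and of pacemaker cells, averaged 1.10 ± 0.533 RPKM at P1, 0.369 ± 0.207 RPKM at P3 (SD, n = 4 each) and 0.728 ± 0.392 RPKM in adults (SD, n = 7). Its changes of -0.39 against P1 (adjusted p = 0.16) and 0.46 against P3 (adjusted p = 0.094) did not pass. Cacnb2, the main cardiac beta subunit, averaged 10.8 ± 5.27 RPKM at P1, 3.34 ± 2.18 RPKM at P3 (SD, n = 4 each) and 5.57 ± 1.51 RPKM in adults (SD, n = 7), with changes of -0.74 (adjusted p = 0.059) and 0.77 (adjusted p = 0.049) that did not meet both conditions of a call, though the second was called higher in the other 4 of 5 scalings.

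The TRIC genes differed from each other. Tmem38a (chr8:72572055-72587282, plus strand), the TRIC channel of striated muscle, was the highest channel gene of the adult libraries. It measured 17.7, 46.5, 30.9 and 26.9 RPKM at P1, 23.0, 7.41, 4.16 and 4.28 RPKM at P3, and 76.3 to 143 RPKM with a median of 109 in adults, without overlap of adult and neonatal libraries. It rose by 1.79 in adult against P1 (SE 0.36, adjusted p = 1.8e-04) and by 3.66 in adult against P3 (SE 0.36, adjusted p = 2.5e-08), or 3.15 and 5.14 above the median gene. Tmem38b, the widely expressed TRIC gene, averaged 4.01 ± 0.577 RPKM at P1, 4.02 ± 0.595 RPKM at P3 (SD, n = 4 each) and 4.31 ± 1.36 RPKM in adults (SD, n = 7). Its changes were 0.05 in both comparisons (adjusted p = 0.83 and 0.84, SE 0.21), and it was called higher in adults in 2 of 5 scalings.

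A fit with P3 replicate 1 as the only P3 library was a choice made after the data were seen. The lone library was taken to vary like the others, which by construction gives a less precise fit, so only changes are given. In adult against P3 they were 3.02 for Kcnk3, 2.39 for Kcnj11, 2.11 for Tmem38a and 1.33 for Kcnj12. Those of Kcng2 (0.00), Kcnh2 (0.20), Kcnj5 (0.53), Kcnq1 (0.76), Cacna1c (0.96) and Cacna2d1 (1.17) were smaller. Leaving out P3 replicate 2, 3 or 4 left 12 channel genes higher in adult against P3 each time, where 8.46% to 8.85% of all genes were. Leaving out P3 replicate 1 gave 14, where 10.3% of all genes were higher. With P3 replicate 1 alone, the changes in adult against P3 were -4.67 for Clic1, -4.08 for Ano6 and -3.48 for Piezo1.

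Of the 10 chloride-named genes and anoctamins, 7 fell in adult against P1 and 7 in adult against P3, a share near the 62.7% of all genes called lower in each, and 0 rose in either in limma (unadjusted p under 0.05: 0 against P1, 1 against P3). Their median changes of -1.35 and -1.50 were close to those of all genes, -1.36 and -1.48. Of the 7, Clic1, Ano6 and Clcn6 were lower in each of 5 scalings.

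Clic1 (chr17:35049966-35058749, plus strand), an intracellular chloride channel protein that moves between cytosol and membranes, was the highest channel gene of the neonatal libraries and had the largest fall. It measured 207, 108, 113 and 156 RPKM at P1, 169.9, 204, 215 and 230.0 RPKM at P3, and 2.77 to 29.0 RPKM with a median of 5.34 in adults. The highest adult library, replicate 4, was still below the lowest neonatal one. Clic1 fell by 4.40 in adult against P1 (SE 0.44, adjusted p = 3.5e-08) and fell by 4.93 in adult against P3 (SE 0.44, adjusted p = 5.3e-09), which is -3.04 and -3.45 relative to the median gene.

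Ano6 (chr15:95790843-95974751, plus strand), a calcium-activated channel that also scrambles membrane lipids, measured 18.1, 10.5, 10.2 and 12.1 RPKM at P1, 20.7, 33.3, 29.5 and 23.4 RPKM at P3, and 0.245 to 1.87 RPKM with a median of 0.584 in adults. No adult library came near a neonatal one. Ano6 fell by 3.36 in adult against P1 (SE 0.29, adjusted p = 7.5e-09) and fell by 4.42 in adult against P3 (SE 0.29, adjusted p = 1.8e-10). Clcn6 (chr4:148004259-148038821, minus strand), a chloride-proton exchanger of late endosomes, measured 5.01, 6.65, 6.38 and 6.96 RPKM at P1, 5.22, 7.63, 6.70 and 6.44 RPKM at P3, and 0.279 to 1.00 RPKM with a median of 0.632 in adults. It fell by 2.63 and 2.68 in adult against P1 and P3 (SE 0.18, adjusted p = 6.7e-10 and 2.4e-10), without overlap, and its neonatal libraries were among the tightest of the set.

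Clcn3, Clcn4 and Clcn7, other endosomal and lysosomal exchangers, and Clic4 were also called lower in adults on the deposited scale, with changes of -1.01 to -1.46 against P1. These 4 genes lay close to the median gene, at -0.09 to 0.35 relative to it, and in adult against P1 their sign turned positive in at least 1 other scaling. Clic4 averaged 92.9 ± 9.75 RPKM at P1, 158 ± 35.4 RPKM at P3 (SD, n = 4 each) and 36.3 ± 7.74 RPKM in adults (SD, n = 7). Clic5, a CLIC protein tied to the actin cytoskeleton, did not share that pattern, with 31.4 ± 16.2 RPKM at P1, 10.5 ± 2.56 RPKM at P3 (SD, n = 4 each) and 19.99 ± 5.74 RPKM in adults (SD, n = 7). Ano10 and Ano8, anoctamins of internal membranes, had changes of 0.15 and -0.44 against P1 and of -0.31 and -0.37 against P3, which did not pass.

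Of 6 tested TRP, Piezo and Tpcn genes, 3 were lower in adult against P1 and 4 in adult against P3, where 62.7% of all genes were lower in each, and 0 were higher in either in limma (unadjusted p under 0.05: 0 in both). Piezo1 (chr8:122481698-122551329, minus strand), a cation channel opened by membrane tension and prominent in endothelium, measured 11.4, 8.85, 7.20 and 10.9 RPKM at P1, 11.6, 21.7, 19.4 and 21.3 RPKM at P3, and 0.134 to 1.43 RPKM with a median of 0.646 in adults. It fell by 3.20 in adult against P1 (SE 0.27, adjusted p = 5.7e-09) and fell by 4.09 in adult against P3 (SE 0.27, adjusted p = 1.8e-10), without overlap. The summed endothelial markers stood in the same order of ages, with medians of 348 RPKM at P1, 1052 RPKM at P3 and 27.4 RPKM in adults. So did the fibroblast markers (178, 619 and 12.4 RPKM) and the mural markers (433, 619 and 34.9 RPKM). The part of these 3 marker sets in the Piezo1, Ano6 and Clic1 results was not tested.

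Trpm7 (chr2:126791565-126876230, minus strand), a magnesium-permeable channel fused to a kinase, measured 14.2, 13.9, 23.8 and 15.2 RPKM at P1, 16.9, 19.2, 19.9 and 18.4 RPKM at P3, and 1.41 to 8.54 RPKM with a median of 2.39 in adults. It fell by 2.39 in adult against P1 (SE 0.32, adjusted p = 1.3e-06), a call made in 3 of 5 scalings, and fell by 2.57 in adult against P3 (SE 0.32, adjusted p = 4.2e-07). Trpv2, a cation channel of muscle and immune cells, measured 2.39, 2.03, 1.04 and 3.97 RPKM at P1, 2.97, 5.45, 2.99 and 4.36 RPKM at P3, and 0.106 to 0.370 RPKM in adults, where it rested on 2 to 12 reads per library. It fell by 1.97 and 2.67 in adult against P1 and P3 (SE 0.23, adjusted p = 3.4e-07 and 4.9e-09). Trpm4, a sodium-permeable channel opened by calcium, averaged 1.10 ± 0.330 RPKM at P1, 1.35 ± 0.493 RPKM at P3 (SD, n = 4 each) and 1.23 ± 0.477 RPKM in adults (SD, n = 7), and its changes of 0.08 and -0.11 did not pass. Tpcn1, an endolysosomal cation channel, passed in adult against P3 (-1.21, SE 0.22, adjusted p = 4.8e-05), but Tpcn1, Trpc1 and Trpc4ap stood 0.13 to 0.81 above the median gene in both comparisons, and their sign differed between scalings.

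P3 cells were lower than P1 cells in 10 channel genes and higher in 0 on the deposited scale in limma (unadjusted p under 0.05: 12 lower, 5 higher), where 5.31% of all genes were lower and 1.40% higher (6.71% in either direction). Among the 10 were Tmem38a (-1.87), Kcng2 (-1.82), Kcnh2 (-1.58), Kcnj5 (-1.51), Cacnb2 (-1.51), Kcne1 (-1.51), Kcnj11 (-1.47), Clic5 (-1.41) and Kcnk3 (-1.39). Adjusted p over the 10 ran from 0.011 to 0.029, and all 10 were lower in each of 5 scalings. At most 4.79% of all genes, the share with an equal RPKM sum, can have been lower in all 5. Of the 10 Kcn genes 6 were among them, and Kcnj2 was the only one with a positive change (0.90, adjusted p = 0.15). These calls depended on the fit, and the calls of all genes changed with it. With the P3 and P1 libraries alone in limma, 0 channel genes were lower, where 0.916% of all genes were. In that fit 1 channel gene, Ano6, was higher, where 1.13% of all genes were. Leaving out P1 replicate 2 or P3 replicate 3 left 0 lower, where 1.07% and 0.639% of all genes were. Leaving out P1 replicate 3 or P3 replicate 4 left 1, where 1.05% and 1.03% of all genes were lower. P1 replicate 4 left out gave 4 and P3 replicate 2 gave 5, where 1.56% of all genes were lower in each. Without P1 replicate 1, 12 were lower (8.53% of all genes), and without P3 replicate 1, 11 (9.47%). With P3 replicate 1 as the only P3 library, changes of the lower genes named above ran from -1.04 (Clic5) to -0.19 (Kcne1). Cardiomyocyte markers moved with these channel genes, at 2932, 729, 444 and 414 RPKM in the P3 libraries, and their part in the result was not tested.

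The adult sets differed in many channel genes. In 20 of 36 channel genes all of adult replicates 5 to 7 lay above all of adult replicates 1 to 4, and in 0 the reverse held. Over all listed genes this was so for 23.7% and the reverse for 130 genes, and the median gene was 0.25 higher in replicates 5 to 7. The largest such differences were those of Cacna1c (1.71), Kcnh2 (1.23) and Trpm7 (1.09) in log2 units. Cardiomyocyte markers summed to 8940 to 16612 RPKM in replicates 1 to 4 and 13938 to 15341 RPKM in replicates 5 to 7. Their mean log2 RPKM was 8.60 to 8.98 in replicates 1 to 4 and 9.49 to 9.75 in replicates 5 to 7, without overlap, and their part in these differences was not tested. With adult replicates 1 to 4 alone 3 channel genes (Kcnk3, Kcnj11 and Tmem38a) were higher and 14 lower in adult against P1. Of all genes, 3.75% were higher and 66.5% lower in that setting. With adult replicates 5 to 7 alone 9 were higher and 10 lower, where 5.19% and 57.1% of all genes were. In adult against P3 these counts were 9 and 12 with the first set and 14 and 10 with the second. The shares of all genes were 8.31% and 65.3% with the first set and 10.3% and 58.7% with the second.

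A ratio of paired genes within a library does not depend on a single scaling factor per library, but quantile normalization can change it. On the deposited values, 10 such ratios were compared in 3 pairs of ages by two-sided exact permutation tests over libraries. P-values were adjusted over the 30 tests, and 9 ratios are given here. The smallest p is 0.0061 for 7 against 4 libraries and 0.029 for 4 against 4. In P3 against P1 no ratio passed after adjustment, and with 4 libraries against 4 a ratio could hardly pass. Clic5 over Clic4 reached the smallest p there, with a difference of -2.20 and no overlap, but had exact adjusted p = 0.066. Tmem38a over Tmem38b had a mean log2 ratio of 2.85 at P1, 0.90 at P3 and 4.61 in adults. The differences of adult against P1 (1.76) and adult against P3 (3.72) had exact adjusted p = 0.017 each, and the adult libraries lay between 4.26 and 5, above all others. Kcnq1 over Kcnh2 averaged -0.35 in adults and -1.35 at P1, a difference of 0.99 without overlap (exact adjusted p = 0.017), and the difference of 0.63 against P3 did not pass (exact adjusted p = 0.10). Kcnj2 over Kcnj12 averaged 0.51 in adults and 3.30 at P3, a difference of -2.80 (exact adjusted p = 0.017), and against P1 the difference of -0.46 did not pass (exact adjusted p = 0.34).

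Among the other families, Ano10 over Ano6 averaged -0.87 at P1, -1.47 at P3 and 3.47 in adults, with differences of 4.34 in adult against P1 and 4.94 in adult against P3. Trpm4 over Trpm7 averaged -3.94 at P1, -3.85 at P3 and -1.22 in adults, differences of 2.72 and 2.63, and Clcn6 over Clcn7 averaged -0.31 at P1, -0.57 at P3 and -2.13 in adults, differences of -1.82 and -1.55. In each of these 3 ratios adult libraries did not overlap neonatal ones (exact adjusted p = 0.017 for each). Clic5 over Clic4 averaged -0.87 in adults and -3.92 at P3, a difference of 3.05 (exact adjusted p = 0.017), and Piezo1 over Trpm7 averaged -2.38 in adults and -0.05 at P3, a difference of -2.33 (exact adjusted p = 0.030). Neither passed in adult against P1 (exact adjusted p = 0.10 and 0.11). Clcn4 over Clcn3 passed in no pair of ages, with a difference in adult against P1 of 0.41 (exact adjusted p = 0.12).

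**Figure D5:**
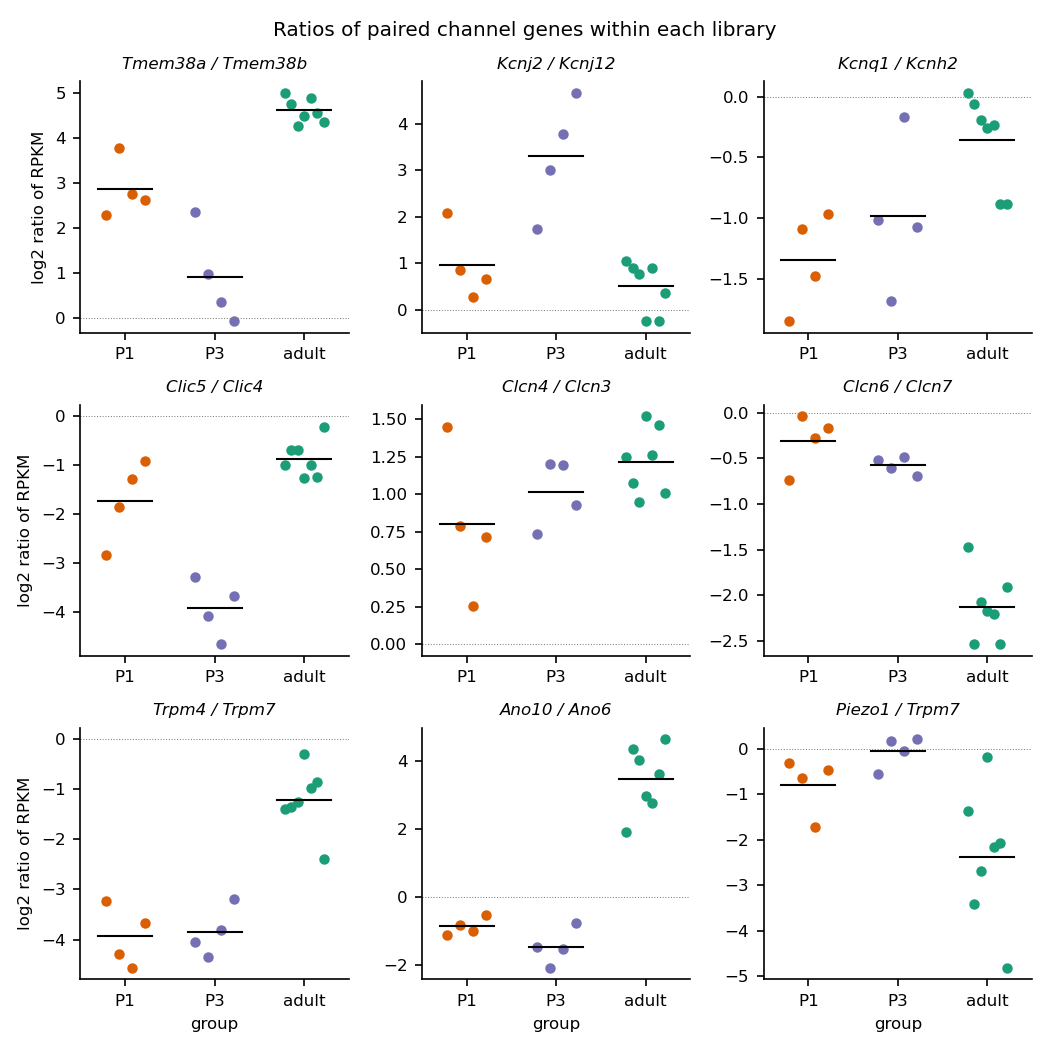
Log2 ratio of RPKM of 9 gene pairs within each library at P1, P3 and in adults, with 1 point per library and a bar at the group mean. Adult libraries lie apart from all neonatal ones for Tmem38a over Tmem38b, Clcn6 over Clcn7, Trpm4 over Trpm7 and Ano10 over Ano6.

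Levels also changed order between ages. In adults Tmem38a averaged 103 ± 25.6 RPKM (SD, n = 7), followed by Clic4 at 36.3 RPKM, Kcnk3 at 21.6 RPKM and Clic5 at 19.99 RPKM, and Tmem38a did not overlap Clic4. Kcnk3 and Clic5 overlapped, at 16.4 to 26.5 and 14.7 to 31.4 RPKM. At P1 Clic1 averaged 146 ± 46.1 RPKM and Clic4 92.9 ± 9.75 RPKM (SD, n = 4 each), followed by Trpc4ap at 34.0 RPKM, Clic5 at 31.4 RPKM and Tmem38a at 30.5 RPKM, the last 3 of which overlapped. At P3 Clic1 and Clic4 averaged 205 ± 25.5 and 158 ± 35.4 RPKM (SD, n = 4 each) and overlapped.

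Genes outside the name rule that form pores or bind channels were counted from 2 lists. Of 33 listed pore genes 20 could be tested, and 1 was higher and 13 lower in adult against P1, and 2 higher and 13 lower in adult against P3, shares near those of all genes (4.32% and 9.16% higher, 62.7% lower in each). Ryr2, the calcium release channel of the sarcoplasmic reticulum and one of the 8 cardiomyocyte markers used above, rose by 1.47 (SE 0.47, adjusted p = 0.0073) and 3.39 (SE 0.47, adjusted p = 1.8e-06). Pkd2, a cation channel of cilia and reticulum, fell by 2.55 and 3.38, and both genes passed in each of 5 scalings. Gja1, the main ventricular gap junction gene, fell by 2.08 and 1.14, and the second of these changed sign between scalings (up to 0.48). Called in all 5 scalings were 1 higher and 4 lower pore genes against P1, and 2 higher and 5 lower against P3. Of 36 channel partners 28 were tested, and 1 was higher and 12 lower in adult against P1, and 7 higher and 10 lower in adult against P3, against the same shares of all genes. Akap7, which anchors protein kinase A, rose by 1.42 and 1.62, and Fgf13, which binds sodium channels, rose by 2.28 in adult against P3. Nedd4l, a ubiquitin ligase that removes channels from the membrane, fell by 2.42 and 2.67, and these 3 genes passed in each scaling. Calm2, a calmodulin gene, fell by 2.26 and 2.56 and passed in 4 of 5 scalings. Called in all 5 scalings were 1 higher and 2 lower partners against P1, and 7 higher and 4 lower against P3. Beside these counts of both lists, at most 4.32% of all genes can have been higher and 16.6% lower in all 5 against P1. Against P3 the limits were 9.16% and 22.8%. In P3 against P1, 2 of 20 tested pore genes and 7 of 28 tested partners were lower, where 5.31% of all genes were. Ryr2 (-1.92) and Cav3 (-2.30), a caveolin of muscle, were among them.

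Reads of some members could not be assigned with certainty. The strand of counting is not given in the sources used here, and exons of members that include Kcnq1, Piezo1, Ano8, Kcnk3, Ano6, Cacnb2, Clcn4, Cacnb1, Kcng2 and Trpc4ap overlap a gene on the opposite strand in GENCODE M21, among them Kcnq1ot1 at Kcnq1, Ctu2 at Piezo1 and Myh7b at Trpc4ap. Exons of Tmem38b overlap a ribosomal RNA gene on the same strand.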

How the data were processed

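Total RNA of isolated ventricular cardiomyocytes was extracted with TRIzol and made into Illumina TruSeq libraries, per the labels' protocols. HISAT2, Partek 6.6 and the build mm10 are named in the submitters' processing notes; which annotation, counting options and strand were used is not given in the sources used here. The authors deposited RPKM for 9666 genes in 15 libraries, each value above 0.1, so a gene below that in any library is not analysed here. Whole multiples of a read step were recovered for 85.4% of genes within a relative tolerance of 1.5e-05 (0.0% after a random change of 1% of each value); the steps were not used as counts in a test.

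Genes with at least 1 RPKM in at least 4 libraries (9389) entered limma 3.58.1 (R 4.3.3) as log2(RPKM + 0.5). The steps were lmFit, contrasts.fit and eBayes with a mean trend, all 3 groups in 1 fit, two-sided, with Benjamini-Hochberg adjustment over all tested genes. This scale understates changes of low genes. The fit was tested on simulated data. Ratios were tested in Python 3.11.15 with scipy 1.17.1. Positions come from GENCODE M21 on GRCm38 and upstream sequences from RefSeq on GRCm38.p6.

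Members, gene lists, gene pairs and tests were chosen with earlier results of these data known. Genes chosen for naming are the 6 largest rises and 6 largest falls among called members in each comparison. A list of action potential and reticulum channels was added, which gave 25 genes, of which 22 are reported by name. Levels are given by library or as group summaries, and other genes are examples. Of the 36 members, 3 are counted in the totals but not reported here by name. Alternatives were 4 scalings, other pseudocounts and filters, fits of 2 groups, replicate numbers as a block, each library left out, each adult set alone and, added after the data were seen, P3 replicate 1 alone. Of the marker lists, immune, epicardial, Schwann and neuronal, and erythroid lists had 0 members in the table, and 2 of 4 atrial markers summed to 666 to 1343 RPKM at P1, 9.67 to 275 RPKM at P3 and 5.67 to 31.3 RPKM in adults. Deviations of same-numbered libraries from their group means had correlations of -0.51 to 0.37, without a common sign. The closest pair of replicates, adult 2 and 3, differed beyond counting noise (chi-square per degree of freedom 2.33).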

Additional observations from a re-analysis of the deposited data

Results flagged for a closer look

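Trpm7 in P1 replicate 3 stood apart from its group, at 23.8 RPKM against 13.9 to 15.2 RPKM in the other P1 libraries. On the log2(RPKM + 0.5) scale, the gap to the nearest library was 0.839 of the range of the group. This was 1 of 66 groups of libraries examined, and chance alone sets about 1 in 20 groups apart.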

How the results depend on the processing

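Scaling moved the counts of calls. In adult against P1, 16 channel genes were higher under median-of-ratios scaling and 16 under quantile normalization, in place of 6. With an equal RPKM sum without the 100 highest genes, 10 were higher. Of all genes, 19.8%, 17.9% and 12.3% were higher in these settings, in place of 4.32%. Lower channel genes numbered 5, 5 and 6 in the same settings and 7 with an equal RPKM sum, in place of 12. Of all genes, 16.6%, 17.8%, 31.2% and 41.4% were lower, in place of 62.7%. In adult against P3, 20 channel genes were higher under median-of-ratios scaling and 19 under quantile normalization, in place of 12. Lower ones numbered 6, 7 and, without the 100 highest genes, 7, in place of 12. Of all genes, 24.9% and 23.1% were higher, and 22.8%, 25.3% and 38.8% lower. Values that turned and passed in adult against P1 were those of Kcng2 (1.02 quantile, 1.15 median-of-ratios) and Kcnh2 (1.16, 1.19), and in adult against P3 that of Trpm4 (1.02 median-of-ratios). Adult replicates 1 to 4 alone left 3 higher in adult against P1, where 3.75% of all genes were.

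In P3 against P1, 1 channel gene was higher with quantile normalization, 2 with an equal RPKM sum and 1 without the 100 highest genes, in place of 0. A pseudocount of 1 gave 1 and a fit of only the 2 groups gave 1. Of all genes, 1.13% to 2.64% were higher in these settings, in place of 1.40%. Lower channel genes numbered 0 with only the 2 groups, where 0.916% of all genes were lower, in place of 10 (5.31% of all genes). Leaving out 1 library gave 0 to 2 higher and 0 to 12 lower, where 0.160% to 3.20% and 0.639% to 9.47% of all genes were. For P3 replicate 1 alone, only the sizes of changes are given, as above.

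Replicate numbers were not taken to pair the libraries in the main fit. With the replicate number as a block, 3 channel genes were higher in adult against P1, where 3.64% of all genes were. In P3 against P1, 2 were lower with the block, where 1.14% of all genes were. Adult replicates 5 to 7 share no number with a neonatal library, so the blocked adult changes are those of adult replicates 1 to 4, which alone gave 3 as well.

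With P3 replicate 1 alone, log2 ratios in adult against P3 were 0.48 for Clcn4 over Clcn3, 2.41 for Clic5 over Clic4, -1.24 for Kcnj2 over Kcnj12 and 2.25 for Tmem38a over Tmem38b, and in P3 against P1 0.78 for Kcnj2 over Kcnj12 and -0.50 for Tmem38a over Tmem38b. Leaving out 1 library gave 0.40 to 0.90 for Kcnq1 over Kcnh2 in adult against P3. For Piezo1 over Trpm7 in adult against P1 it gave -1.96 to -1.19. The values of 0.90 and -1.96 passed. Their p-values were adjusted only over the pairs of ages that include the group of the library left out, which is fewer than the 30 tests. The causes were not tested. Of the values of named genes under all alternatives, 1247 kept direction and side of the threshold, 82 no longer passed, 50 newly passed, 5 turned to or from a call, and 65 differed in sign with no call under either setting. Low levels limit Trpv2, Cacnb1 and Kcnj12, with as few as 2, 6 and 8 reads in a library.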
